A study of Oryctolagus cuniculus with 9 samples.

Results

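The genes described here are 6 inhibitors of extracellular proteases: the tissue inhibitors of metalloproteinases TIMP1, TIMP2, TIMP3 and TIMP4, the serpin SERPINE2, and RECK. They were taken by name from the 23407 gene rows of the deposited tables, and all 6 were found, each with a scaled read count of at least 1 in all 9 libraries. The rule goes by gene name, but the names were proposed with earlier results of these data known, so counts among the 6 are a description beside the share of all genes and not a test. The values are scaled read counts, that is, reads per gene divided by a size factor of the library.

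The series measured RNA by sequencing in rabbit ligamentum flavum, the elastic ligament that joins the laminae of neighbouring vertebrae, and its title asks about mechanical stress on this tissue. The labels give 3 libraries of the level where stress concentrates between fusions (ISC, treatment "ISC load"), 3 of a fused level (Fused) and 3 after a sham operation (Control). The rabbits were New Zealand white males, aged 70 weeks. The operation, at 18 weeks of age, removed supraspinal muscle at L3-4 and fused L2-3 and L4-5 posterolaterally with instruments. The labels carry that operation for every library, Control included, and do not say what the sham consisted of. No label ties a library to an animal, so a p-value here reflects the spread between libraries, which may be technical, and an animal may have given more than 1 of them.

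TIMPs are small secreted proteins that bind the active site of matrix metalloproteinases (MMPs), the enzymes that cut collagen, elastin and other matrix proteins. TIMP3 stays bound to the matrix and also inhibits proteases of the ADAM and ADAMTS families, which shed cell surface proteins and cut proteoglycans. SERPINE2, also called protease nexin 1, traps thrombin, urokinase and plasmin, and the complexes are taken up through LRP1. RECK is held at the cell surface by a lipid anchor, restrains several MMPs, and in mice is a partner of ADGRA2 in WNT7 signalling. In a ligament the balance between such inhibitors and their proteases sets how fast matrix turns over.

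Reads per library numbered between 1233155 and 1869209, so that 3 reads corresponded to a scaled read count between 2.40 and 3.58. Haemoglobin genes took 0.480%, 5.00% and 0.421% of reads in ISC replicates 1 to 3, 1.55%, 5.64% and 6.41% in the Fused libraries in the same order, and between 0.0963% and 0.248% in Control. ISC replicate 2 and Fused replicates 2 and 3 therefore stood apart from the other 6 libraries in haemoglobin reads, and are called blood-rich below. The name rests on these reads alone, and whether they came from blood or from marrow was not tested. Of 12 marker genes of ligament fibroblasts 11 had a row. The tendon and ligament marker TNMD was at 0 in 7 of the 9 libraries and was read in ISC replicate 3 and Control replicate 2. The other 10 marker genes, among them the collagen genes COL1A1 and COL3A1 and the elastin gene ELN, were above 0 in all 9 libraries. In such bulk tissue, fewer cells of a type and less RNA per cell cannot be told apart.

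By level per kilobase, TIMP3 and TIMP2 were the most abundant of the 6 and RECK and TIMP4 the least. Per kilobase of the deposited gene length, TIMP3 averaged 1215 in ISC, 512 in Fused and 1027 in Control, and TIMP2 averaged 965 in ISC, 440 in Fused and 996 in Control. The ranges of TIMP3 and TIMP2 overlapped in each group, so their order was not set apart by the libraries. In the same unit SERPINE2 averaged 392 in ISC, 77.1 in Fused and 292 in Control, and TIMP1 averaged 213 in ISC, 84.7 in Fused and 137 in Control. SERPINE2 lay above TIMP1 without overlap in ISC and in Control, while in Fused their ranges overlapped. RECK averaged 59.0 in ISC, 35.5 in Fused and 43.5 in Control, and TIMP4 averaged 21.0 in ISC, 44.5 in Fused and 60.9 in Control. RECK lay above TIMP4 without overlap in ISC, and in Fused and Control the ranges overlapped. Among all rows, TIMP3 ranked 111 in ISC, 197 in Fused and 122 in Control by level per kilobase, and SERPINE2 ranked 274 in ISC, 1410 in Fused and 340 in Control. The rows hold 636 exon bases for TIMP3, 675 for TIMP4, 888 for TIMP1, 2271 for SERPINE2, 3064 for TIMP2 and 3334 for RECK, and a level per kilobase depends on how much of the transcript the annotation covers.

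**Figure D1:**
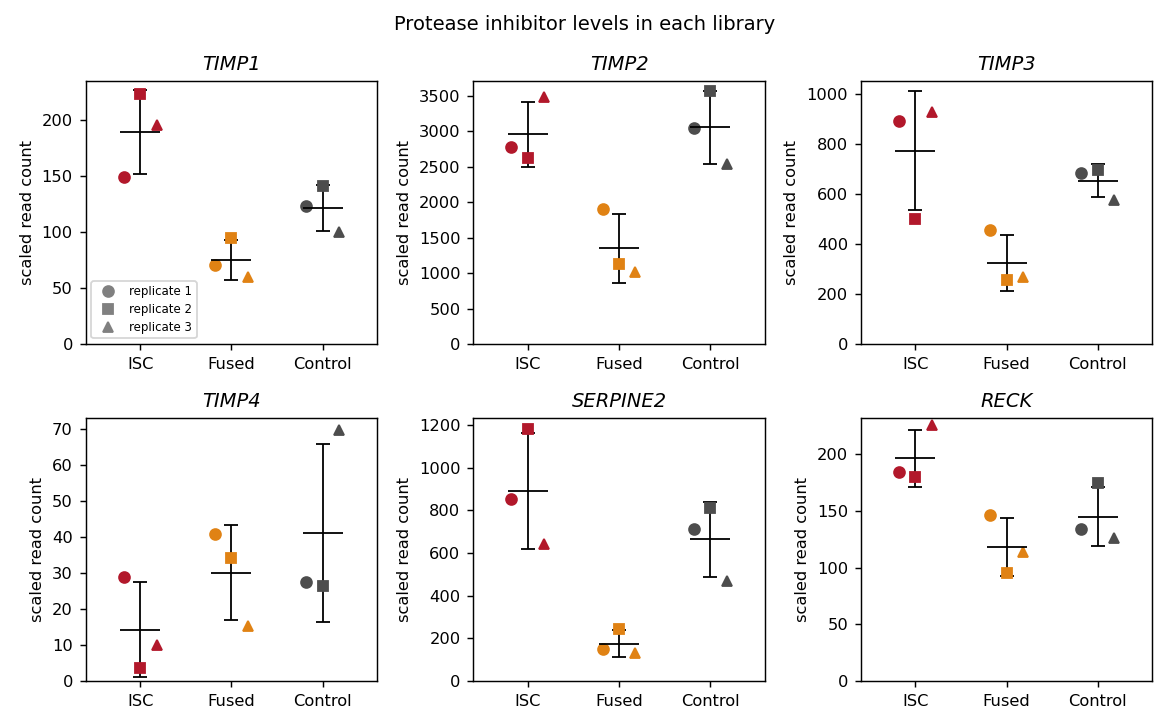
Scaled read count (linear axis from 0) of each of the 6 genes in the 3 ISC, 3 Fused and 3 Control libraries; symbols give the replicate number, horizontal bars the mean and whiskers the SD. SERPINE2 sits between 130.1 and 245 in Fused, below all ISC and Control libraries, while the 3 groups of TIMP4 overlap.

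SERPINE2 showed the widest separation. Its row lies on chromosome 7, bases 165490573 to 165552707 of oryCun2 on the minus strand, with 10 exons. The scaled read count was 854, 1180 and 640.04 in ISC replicates 1 to 3, 149.8, 245 and 130.1 in Fused replicates 1 to 3, against 712, 809.7 and 469.7 in Control replicates 1 to 3. All Fused libraries lay below every ISC and every Control library, and the ISC and Control ranges overlapped. SERPINE2 fell in Fused against Control, with a log2 change of -1.93 (SE 0.282, 95% interval -2.58 to -1.29, limma adjusted p = 0.0164), with means of 175 ± 61.7 in Fused and 664 ± 175 in Control (SD, n = 3 each). It was higher in ISC than in Fused, with a log2 change of 2.35 (SE 0.319, 95% interval 1.61 to 3.09, limma adjusted p = 0.0392) and an ISC mean of 891 ± 272 (SD, n = 3). ISC and Control did not differ past the threshold (log2 change 0.42, 95% interval -0.26 to 1.09, limma adjusted p = 0.615). The authors' deposited table gives SERPINE2 a q-value of 0.000581 for Fused against Control, 0.902 for ISC against Control and 1.67e-05 for ISC against Fused. The call in Fused against Control was lost without Fused replicate 2 (limma adjusted p = 0.0707), Fused replicate 3 (0.0717), Control replicate 1 (0.0576) or Control replicate 2 (0.0943), with log2 changes between -2.20 and -1.75. In ISC against Fused it was lost whichever single library was left out (limma adjusted p between 0.072 and 0.218, log2 changes between 2.13 and 2.62) and with edgeR (adjusted p = 0.0729).

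TIMP3, the matrix-bound member, lies on chromosome 4, bases 88311789 to 88361387 on the minus strand, with 5 exons. Its scaled read count was 892, 499 and 928 in ISC replicates 1 to 3, 454, 254 and 268 in Fused replicates 1 to 3, against 685, 697 and 578 in Control replicates 1 to 3. Every Fused library lay below every ISC and Control library, and ISC replicate 2, with 499, was the lowest of the ISC and Control libraries. TIMP3 fell in Fused against Control, to 325 ± 112 against 653 ± 65.9 (SD, n = 3 each), a log2 change of -1.05 (SE 0.238, 95% interval -1.59 to -0.51, limma adjusted p = 0.039). ISC against Fused gave a log2 change of 1.24 (95% interval 0.47 to 2.02, limma adjusted p = 0.225), and ISC against Control 0.19 (95% interval -0.42 to 0.80, limma adjusted p = 0.801). The authors' deposited table gives TIMP3 q-values of 0.154 for Fused against Control and 0.085 for ISC against Fused. The call in Fused against Control was kept without Fused replicate 1 (limma adjusted p = 0.00205, log2 change -1.32). It was lost without Fused replicate 2 (0.123), Fused replicate 3 (0.135) or Control replicates 1, 2 or 3 (0.123, 0.167 and 0.0887), with log2 changes between -1.14 and -0.90.

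TIMP2, which with MMP14 also takes part in the activation of the MMP2 proenzyme, lies on scaffold Un0367, bases 25563 to 36845 on the plus strand, with 5 exons. Its scaled read count was 2774, 2619 and 3477 in ISC replicates 1 to 3, 1901, 1132 and 1013 in Fused replicates 1 to 3, against 3043, 3570.4 and 2543 in Control replicates 1 to 3. Fused lay below both other groups without overlap, and ISC and Control covered nearly the same range. The Fused mean was 1349 ± 482 and the Control mean 3052 ± 514 (SD, n = 3 each), a log2 change of -1.22 (SE 0.308, 95% interval -1.92 to -0.52) that missed the threshold (limma adjusted p = 0.0517). It passed without Fused replicate 1 (limma adjusted p = 0.00908), with DESeq2 (adjusted p = 0.00186) and when genes needed a minimum value of 10 (limma adjusted p = 0.0448). It did not pass in the other 13 of 16 alternatives. Among these, limma adjusted p was 0.0789 in a fit of all 9 libraries. It was between 0.112 and 0.202 when any single library but Fused replicate 1 was left out. The authors' deposited table gives TIMP2 q-values of 0.174 for Fused against Control and 0.365 for ISC against Fused. The ISC mean was 2957 ± 457 (SD, n = 3), with a log2 change of 1.18 against Fused (limma adjusted p = 0.258) and -0.04 against Control (95% interval -0.67 to 0.59, limma adjusted p = 0.959). The sign of the last value turned without ISC replicate 2 (0.04) or Control replicate 2 (0.08).

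TIMP1, an inhibitor that binds the MMP9 proenzyme, lies on chromosome X, bases 32653951 to 32658560 on the plus strand, with 6 exons. Its scaled read count was 149, 223 and 196 in ISC replicates 1 to 3, 70.8, 94.5 and 60.1 in Fused replicates 1 to 3, against 123, 141 and 100.03 in Control replicates 1 to 3. The 3 groups did not overlap: every ISC library was above every Control library, and every Fused library below. The borders were close. The exact Poisson 95% intervals of ISC replicate 1 and Control replicate 2 overlapped, as did those of Fused replicate 2 and Control replicate 3. None of the 3 differences passed the threshold. ISC against Control gave a log2 change of 0.63 (SE 0.211, 95% interval 0.14 to 1.12, limma adjusted p = 0.359), with means of 189 ± 37.5 in ISC and 122 ± 20.7 in Control (SD, n = 3 each). Fused, with a mean of 75.2 ± 17.6 (SD, n = 3), gave -0.70 against Control (SE 0.216, 95% interval -1.19 to -0.21, limma adjusted p = 0.0941). ISC against Fused gave 1.33 (SE 0.248, 95% interval 0.75 to 1.90, limma adjusted p = 0.0864), past the threshold with DESeq2 (adjusted p = 0.00574) and in a limma fit of all 9 libraries (adjusted p = 0.0232). It did not pass with edgeR (adjusted p = 0.0992). Nor did it pass whichever single library was left out (limma adjusted p between 0.128 and 0.357). The authors' deposited table gives TIMP1 a q-value of 0.00399 for ISC against Fused, 0.286 for Fused against Control and 0.497 for ISC against Control.

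RECK lies on chromosome 1, bases 17867123 to 17946995 on the minus strand, with 21 exons. Its scaled read count was 184, 180.2 and 226 in ISC replicates 1 to 3, 146, 95.5 and 114 in Fused replicates 1 to 3, against 134, 175 and 126 in Control replicates 1 to 3. ISC lay above both other groups without overlap, though ISC replicate 2 (180.2) was close to Control replicate 2 (175), and Fused and Control overlapped. No difference passed: the log2 change was 0.45 for ISC against Control (SE 0.187, 95% interval 0.01 to 0.88, limma adjusted p = 0.422), -0.30 for Fused against Control (limma adjusted p = 0.448) and 0.74 for ISC against Fused (limma adjusted p = 0.273). The means were 197 ± 25.1 in ISC, 119 ± 25.7 in Fused and 145 ± 26.2 in Control (SD, n = 3 each).

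TIMP4, the least abundant TIMP and one known in other mammals from heart, muscle and fat, lies on chromosome 9, bases 11767817 to 11773763 on the plus strand, with 5 exons. Its scaled read count was 29.0, 3.58 and 10.03 in ISC replicates 1 to 3, 40.6, 34.2 and 15.3 in Fused replicates 1 to 3, against 27.3, 26.4 and 69.6 in Control replicates 1 to 3. The groups overlapped in each comparison, with the lowest values in ISC replicates 2 and 3 and the highest in Control replicate 3. The value in ISC replicate 2 rests on 3 reads (exact Poisson 95% interval 0.738 to 10.46 in scaled reads, counting error only). The log2 change was -1.73 for ISC against Control (SE 0.696, 95% interval -3.34 to -0.11, limma adjusted p = 0.41), -0.40 for Fused against Control (limma adjusted p = 0.672) and -1.33 for ISC against Fused (limma adjusted p = 0.6). ISC against Control moved to -1.06 without ISC replicate 2 and to -2.42 without ISC replicate 1, and ISC against Fused to -0.66 and -2.02 without the same libraries. Without Control replicate 3, Fused against Control turned to 0.05, and without Fused replicate 3 to 0.01. The adipocyte marker list, with 8 rows, had mean log2 values of 4.88, 4.82 and 4.81 in ISC replicates 1 to 3, 8.13, 7.35 and 7.48 in Fused replicates 1 to 3, against 6.34, 7.83 and 8.58 in Control replicates 1 to 3. This list was lowest in the ISC libraries. TIMP4 in ISC replicate 1 (29.0) was close to Control replicates 1 and 2 (27.3 and 26.4). Their exact Poisson 95% intervals overlapped (19.1 to 42.1, 18.3 to 39.3 and 18.1 to 37.0, in that order). The list and TIMP4 were both highest in Control replicate 3. In replicate order, the skeletal muscle list had means of 5.64, 1.19 and 1.33 in ISC and 2.07, 2.19 and 1.69 in Fused. In Control it had 7.91, 1.49 and 4.89. The smooth muscle and pericyte list had 8.62, 6.86 and 7.56 in ISC and 8.62, 7.49 and 6.64 in Fused. In Control it had 8.65, 8.16 and 8.74. The part of these lists in the TIMP4 values was not tested.

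**Figure D2:**
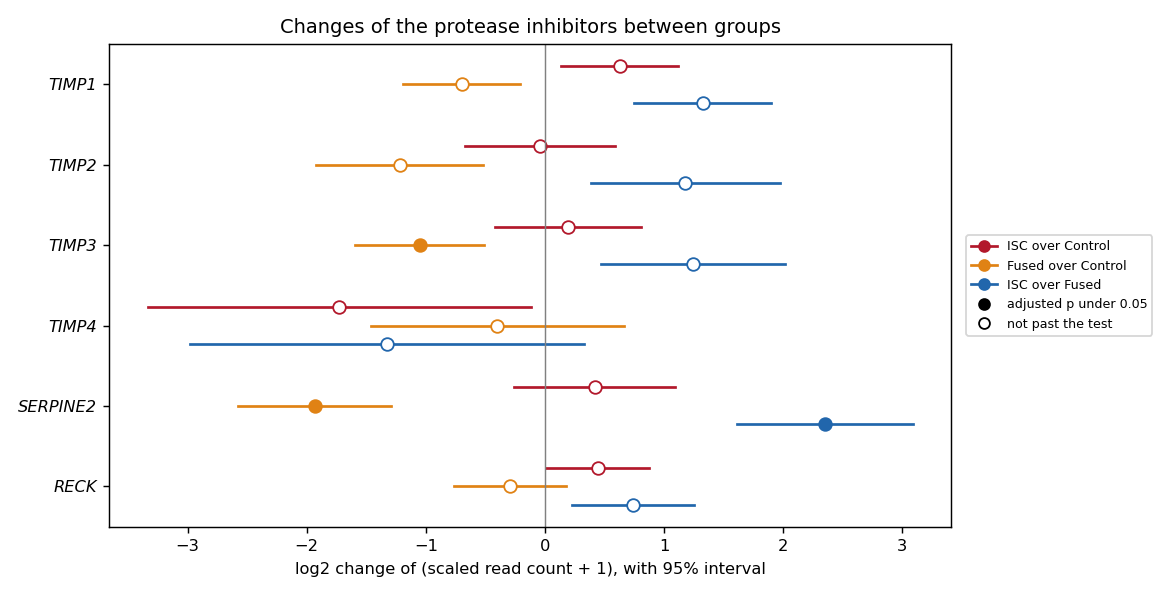
Log2 change of each gene (horizontal axis, on log2 of the scaled read count + 1) in the 3 comparisons, with 95% intervals from limma; filled points passed an adjusted p under 0.05 over all genes tested. Filled points stand at SERPINE2 and TIMP3 for Fused over Control and at SERPINE2 for ISC over Fused, and TIMP4 alone lies left of 0 in all 3.

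Set side by side, Fused against Control asked what differed at the fused level. Of the 6 genes 2 fell, SERPINE2 and TIMP3, and 0 rose, where 2.6% of 14686 genes tested fell, 3.98% rose and 6.58% passed in either direction. The groups did not overlap for 4 of the 6, all lower in Fused (TIMP1, TIMP2, TIMP3 and SERPINE2), against 13.3% of all genes tested. The median log2 change was -0.87 for the 6 and 0.0245 for all genes tested, and the change was negative for all 6.

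ISC against Control asked what differed at the stress level. None of the 6 genes passed in limma, edgeR or DESeq2, while 0.0488% of 14348 genes tested did in limma, 0.0348% in edgeR and 1.59% in DESeq2. At an unadjusted p under 0.05 limma counted 3 of the 6 (TIMP1, TIMP4 and RECK), against 11.5% of all genes tested. The groups did not overlap for 2 of the 6, TIMP1 and RECK, both higher in ISC, against 9.54% of all genes tested. The median log2 change was 0.31 for the 6 and 0.0038 for all genes tested.

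ISC against Fused compared both operated levels. SERPINE2 was the 1 gene of the 6 that passed, higher in ISC, where 0.201% of 15404 genes tested passed in that direction and 0.279% in either. The groups did not overlap for 5 of the 6, all but TIMP4 and all higher in ISC, against 8.08% of all genes tested. The median log2 change was 1.21 for the 6 and -0.067 for all genes tested. The 3 comparisons share their libraries in pairs, so they are not independent of each other. In edgeR 0 of the 6 passed in this comparison, against 0.188% of all genes tested, and 5 had an unadjusted p under 0.05, against 9.87%. In DESeq2 3 passed, against 2.08%.

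**Figure D3:**
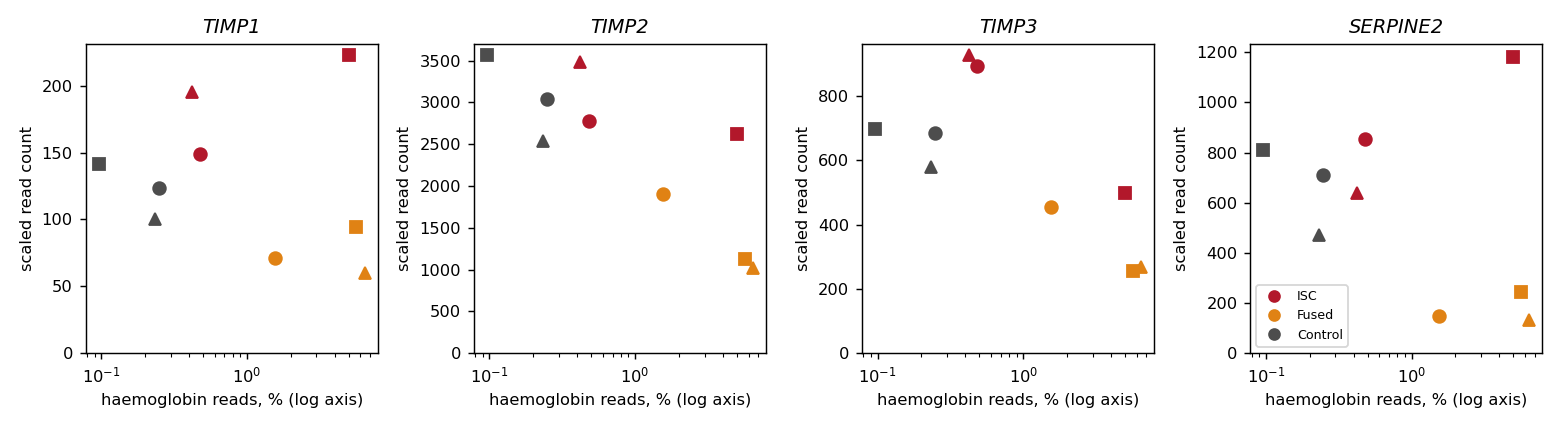
Scaled read count of TIMP1, TIMP2, TIMP3 and SERPINE2 (linear vertical axes from 0) against the percentage of reads from haemoglobin genes (log axis), 1 point per library, coloured by group, with circles, squares and triangles for replicates 1, 2 and 3. ISC replicate 2, at 5.00% haemoglobin, has the highest SERPINE2 (1180) and TIMP1 (223) of all libraries and the lowest TIMP3 (499) of the ISC libraries.

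The genes were also set beside the haemoglobin reads of the libraries. SERPINE2 was 149.8 in Fused replicate 1, the Fused library with the fewest haemoglobin reads, and 245 and 130.1 in the blood-rich Fused replicates 2 and 3. Without the libraries over 4% haemoglobin, which leaves Fused replicate 1 alone against 3 Control libraries, the SERPINE2 log2 change was -2.10 (limma adjusted p = 0.307, the lone library assumed to vary as Control does), against -1.93 with all libraries. In the same setting TIMP1 stood at -0.76 (limma adjusted p = 0.365). TIMP3 stood at -0.52 (limma adjusted p = 0.375), TIMP2 at -0.67 (limma adjusted p = 0.457) and RECK at 0.03 (limma adjusted p = 0.967). With all libraries TIMP1 stood at -0.70, TIMP3 at -1.05, TIMP2 at -1.22 and RECK at -0.30, and without the blood-rich ones no gene of the whole table passed in limma (1924 at an unadjusted p under 0.05). In ISC against Control without ISC replicate 2, the log2 change was 0.19 for SERPINE2 and 0.48 for TIMP3, against 0.42 and 0.19 with all libraries. In ISC against Fused without those libraries, the log2 change was 2.30 for SERPINE2, 1.26 for TIMP1, 1.001 for TIMP3, 0.71 for TIMP2 and 0.48 for RECK, with limma adjusted p of at least 0.609. The part of blood or marrow in these differences was not tested.

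Markers of other cells moved as well. The ligament fibroblast list had mean log2 values of 9.19, 10.4 and 10.7 in ISC replicates 1 to 3, 8.53, 8.25 and 7.59 in Fused replicates 1 to 3, against 9.15, 9.35 and 8.87 in Control replicates 1 to 3. Of its 10 tested genes 3 fell in Fused against Control, against 2.6% of all genes tested, with a median log2 change of -0.67. In that comparison 5 of the 10 lay lower in Fused without overlap, against 13.3%. In ISC against Fused all 10 had a higher value in ISC, with a median of 1.58 and 0 called. The groups did not overlap for 5 of them, against 8.08% of all genes tested. The fibroblast means thus lay lowest in Fused, like TIMP1, TIMP2, TIMP3 and SERPINE2. In the neutrophil and precursor list 9 of 9 tested genes rose in Fused against Control, against 3.98% of all genes tested. Its means lay between 6.61 and 9.81 in Fused and between 2.53 and 3.43 in Control. In ISC its means lay between 4.24 and 9.47. All 8 genes tested in ISC against Control were higher in ISC without overlap, against 9.54% of all genes tested, with 0 called. The erythroid list, of which 10 of 10 tested genes rose in Fused against Control, had means between 5.56 and 7.82 in Fused and between 1.69 and 2.86 in Control. In ISC the erythroid means lay between 3.67 and 8.24. All 9 erythroid genes tested in ISC against Control were likewise higher in ISC without overlap, with 0 called. Of 7 smooth muscle and pericyte genes 2 fell in Fused against Control, with a median log2 change of -0.79 and means between 6.64 and 8.62 in Fused and between 8.16 and 8.74 in Control. Of 9 osteoblast and osteocyte genes 2 rose, with a median of 2.51 and means between 3.87 and 6.24 in Fused and between 2.56 and 3.32 in Control. Of 9 chondrocyte genes 4 rose in ISC against Control, where 0.0488% of all genes tested passed in either direction. The chondrocyte list had means between 8.52 and 8.67 in ISC and between 3.81 and 5.15 in Control. The part of these cell types in the differences of the inhibitors was not tested.

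Added up per kilobase, the 4 TIMPs were lowest in Fused. The sum was 2519, 1896 and 2829 in ISC replicates 1 to 3, 1474, 927 and 842 in Fused replicates 1 to 3, against 2250.4, 2460 and 1954 in Control replicates 1 to 3. The Fused libraries lay below all others, and ISC and Control overlapped. TIMP2 made up between 35.9% and 47.4% of the sum and TIMP3 between 41.4% and 55.7% over all 9 libraries, so TIMP2 and TIMP3 together were most of the sum in each. TIMP4 made up 1.70%, 0.280% and 0.525% of it in ISC replicates 1 to 3, 4.08%, 5.47% and 2.69% in Fused replicates 1 to 3, against 1.80%, 1.59% and 5.28% in Control replicates 1 to 3.

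The sum of 21 MMP rows, also per kilobase, was 342, 633 and 1086 in ISC replicates 1 to 3, 446, 1450.0 and 504 in Fused replicates 1 to 3, against 416, 764 and 482 in Control replicates 1 to 3. These ranges overlapped. The ratio of the TIMP sum to the MMP sum was 7.37, 2.99 and 2.61 in ISC replicates 1 to 3, 3.31, 0.639 and 1.67 in Fused replicates 1 to 3, against 5.41, 3.22 and 4.06 in Control replicates 1 to 3. The lowest ratios were those of the blood-rich Fused replicates 2 and 3, and Fused replicate 1 lay within the Control range. MMP2, gelatinase A, was the most abundant MMP row in all libraries but Fused replicates 2 and 3, where MMP13, a collagenase of cartilage and bone cells, took its place. Such ratios of RNA levels are descriptions without a test, and say nothing of protein or activity.

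**Figure D4:**
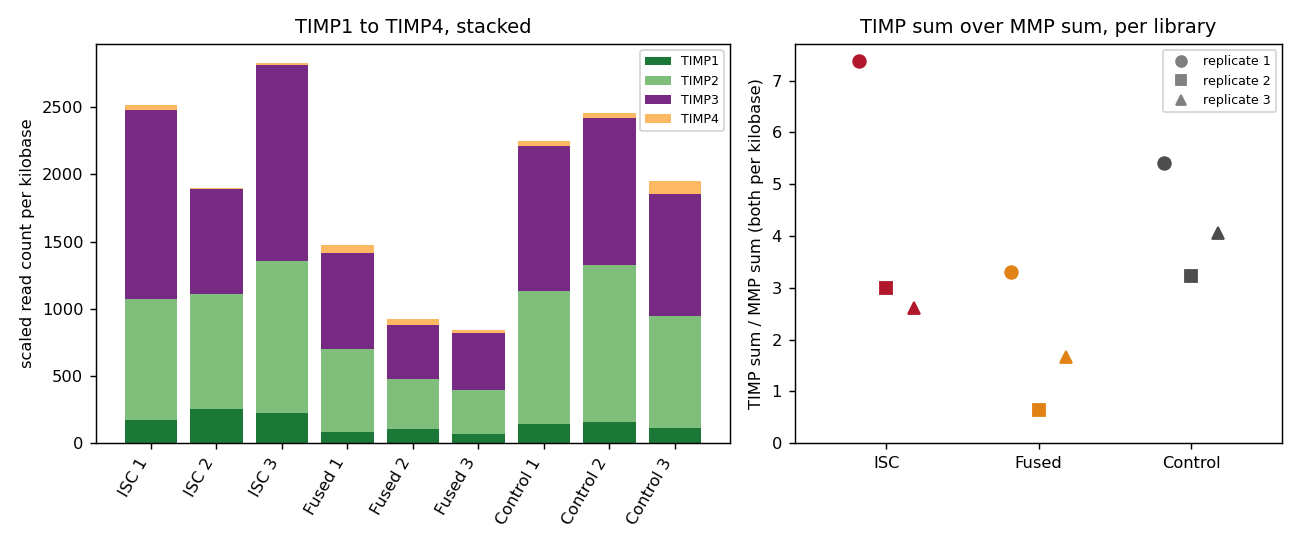
Left, stacked scaled read counts per kilobase of TIMP1 to TIMP4 in each library; right, the TIMP sum divided by the sum of 21 MMP rows per library, with symbols for the replicate number. The stacks reach at most 1474 in Fused and at least 1896 elsewhere, and the ratio is below 1 only in Fused replicate 2 (0.639).

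Among the targets, MMPs went both ways in Fused. Of 16 tested MMP genes 2 rose and 1 fell in Fused against Control, beside 3.98% and 2.6% of all genes tested. The median log2 change of the list was 0.56. MMP13 rose, with 208, 2518 and 705 in Fused replicates 1 to 3 against 2.83, 14.4 and 55.7 in Control replicates 1 to 3 (log2 change 5.59, limma adjusted p = 0.0221). MMP8, the collagenase of neutrophils, rose with 26.7, 169 and 112 in Fused replicates 1 to 3, against at most 0.943 in Control, which is 1 read (limma adjusted p = 0.0142). Both had their lowest Fused value in Fused replicate 1, as did the mean of the neutrophil and precursor list, which itself holds MMP8. The means of the erythroid, the osteoblast and osteocyte, and the macrophage and osteoclast lists were also lowest there among the Fused libraries. MMP2 fell, with 609.7, 407 and 259 in Fused replicates 1 to 3 against 895, 1669 and 855 in Control replicates 1 to 3 (log2 change -1.43, limma adjusted p = 0.04995). That call was lost with edgeR and with median-of-ratios scaling. In ISC against Control 0 of 14 MMP genes passed and in ISC against Fused 0 of 16, with median log2 changes of 0.38 and -0.37.

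Of 22 tested ADAM and ADAMTS genes 2 rose and 1 fell in Fused against Control, beside 3.98% and 2.6% of all genes tested. The median log2 change of the list was -0.05. ADAM8, a protease of white blood cells, rose with 18.6, 118 and 82.0 in Fused replicates 1 to 3 against 4.71, 6.39 and 2.61 in Control replicates 1 to 3 (limma adjusted p = 0.022). ADAM10, a widespread sheddase that TIMP1 and TIMP3 inhibit, rose with 142, 257 and 242 in Fused replicates 1 to 3 against 74.5, 91.0 and 112 in Control replicates 1 to 3 (log2 change 1.17, limma adjusted p = 0.0351). ADAMTS10, a protease tied to fibrillin microfibrils, fell with 85.9, 73.4 and 83.1 in Fused replicates 1 to 3 against 127, 153 and 142 in Control replicates 1 to 3 (log2 change -0.79, limma adjusted p = 0.0259). In the other comparisons 0 of 22 (ISC against Control) and 0 of 23 (ISC against Fused) passed.

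The plasminogen and thrombin list holds receptors and cofactors as well as proteases. The genes of thrombin (F2) and plasmin (PLG), which SERPINE2 traps, were not among those tested. PLAU, the urokinase gene, had a log2 change of -0.36 in Fused against Control (limma adjusted p = 0.474). In that comparison the median log2 change of the list was -0.42. Of its 12 tested genes 1 rose and 0 fell, beside 3.98% and 2.6% of all genes tested. The gene was PLAUR, the urokinase receptor, with 12.8, 40.2 and 20.8 in Fused replicates 1 to 3, against 2.83, 0 and 2.61 in Control replicates 1 to 3, each at or below the value of 3 reads (limma adjusted p = 0.0263). PLAUR was also above Control in ISC, with 11.8, 26.3 and 23.1 in ISC replicates 1 to 3, without passing (limma adjusted p = 0.267). PLAT, the tissue plasminogen activator, stood at 6.97, 27.2 and 5.47 in Fused replicates 1 to 3, against 49.0, 53.5 and 37.4 in Control replicates 1 to 3 (limma adjusted p = 0.0539). HTRA1, a secreted serine protease of matrix, averaged 1132 ± 385 in ISC and 449 ± 116 in Fused (SD, n = 3 each, limma adjusted p = 0.162). In ISC against Control and in ISC against Fused 0 of 12 of these genes passed, with median log2 changes of 0.23 and 0.51.

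Of 9 other serpin genes tested 3 fell and 0 rose in Fused against Control, beside 2.6% and 3.98% of all genes tested. The median log2 change of the list was -0.83. SERPING1, the inhibitor of complement C1 proteases, fell with 487, 399 and 291 in Fused replicates 1 to 3 against 919, 1088 and 739 in Control replicates 1 to 3 (log2 change -1.23, limma adjusted p = 0.0233). SERPINH1, a collagen chaperone that inhibits no protease, fell with 362, 255 and 227 in Fused replicates 1 to 3 against 508, 582 and 500.2 in Control replicates 1 to 3 (log2 change -0.94, limma adjusted p = 0.0327). SERPINE3 was at 0 in all 3 Fused libraries and between 3.19 and 3.77 in Control, close to the value of 3 reads, so its call (limma adjusted p = 0.0311) rests on few reads, and it was lost with edgeR (adjusted p = 0.0559, median of the list -0.64). In ISC against Fused 0 of 11 passed, with a median log2 change of 0.88, and in ISC against Control 0 of 10, with -0.10. SERPINA3 shows the spread in ISC, with 79.3, 90.7 and 1.003 in ISC replicates 1 to 3 against 4.71, 0 and 0 in Control replicates 1 to 3 (limma adjusted p = 0.4).

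Of 12 other inhibitors of extracellular proteases 2 fell and 0 rose in Fused against Control, beside 2.6% and 3.98% of all genes tested. The median log2 change of the list was -0.78. PCOLCE2 carries a domain related to TIMPs but is known as an enhancer of procollagen processing. It fell, with 247, 156 and 92.9 in Fused replicates 1 to 3 against 2752, 925 and 781 in Control replicates 1 to 3 (log2 change -3.03, limma adjusted p = 0.0174). In ISC it stood at 3388, 2597 and 1147 in replicates 1 to 3 and was higher than in Fused (log2 change 3.81, limma adjusted p = 0.0312). It was the 1 of 12 that passed there, against 0.279% of all genes tested in either direction, and 0 passed with edgeR. SPINT2, an inhibitor of cell surface serine proteases, fell with 76.6, 70.4 and 74.3 in Fused replicates 1 to 3 against 129, 130.2 and 110.5 in Control replicates 1 to 3 (log2 change -0.73, limma adjusted p = 0.032). In ISC against Control 0 of 12 passed. SPOCK2, a matrix proteoglycan, stood at 499.7, 107 and 81.3 in ISC replicates 1 to 3 against 614, 536 and 582 in Control replicates 1 to 3 (limma adjusted p = 0.357).

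The median log2 change of 10 tested binding partners and clearance receptors in Fused against Control was -0.08. Of the 10, beside 2.6% of all genes tested that fell and 3.98% that rose, 0 rose and 1 fell. It was LRP5, a WNT co-receptor, with 89.4, 55.3 and 57.9 in Fused replicates 1 to 3 against 156, 123 and 132 in Control replicates 1 to 3 (log2 change -1.04, limma adjusted p = 0.0306). LRP1, the receptor that clears SERPINE2 and TIMP complexes, stood at 3386, 2212 and 1604 in Fused replicates 1 to 3 against 6092, 6899 and 5335 in Control replicates 1 to 3, without overlap and short of the threshold (limma adjusted p = 0.0602, edgeR adjusted p = 0.0491). ADGRA2, the partner of RECK, averaged 145 ± 47.2 in ISC and 221 ± 80.8 in Control (SD, n = 3 each, limma adjusted p = 0.502). In the other comparisons 0 of 10 passed. Without the libraries over 4% haemoglobin, a setting chosen for these lists after seeing the data, Fused replicate 1 alone stood for Fused. Whether a list kept its calls cannot be judged from that fit. Its median log2 changes in Fused against Control were -0.43 for other serpins, -0.41 for other inhibitors and -0.11 for binding partners and receptors. They were 0.79 for MMPs, -0.26 for ADAM and ADAMTS genes and -0.22 for plasminogen and thrombin genes.

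**Figure D5:**
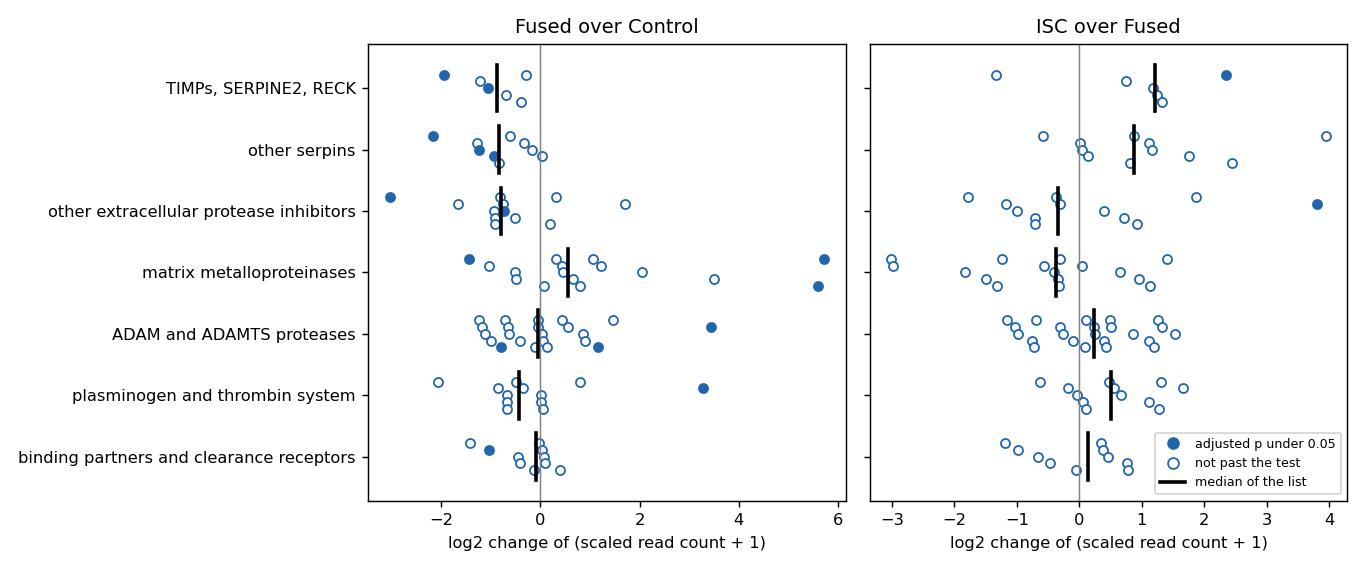
Log2 change of each tested gene (points, on log2 of the scaled read count + 1) in the 6 inhibitors and 6 related gene lists, for Fused over Control (left) and ISC over Fused (right); filled points passed the limma test and black bars are medians. The medians of the 6 inhibitors are -0.87 and 1.21, those of the other serpins -0.83 and 0.88, and those of the matrix metalloproteinases 0.56 and -0.37.

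Over the 9 libraries, each pair among the 6 genes without TIMP4 had a positive correlation. On log2(scaled read count + 1), Pearson's r was 0.94 between TIMP2 and TIMP3 and 0.92 between TIMP1 and SERPINE2, and TIMP4 had a negative r with each of the other genes, between -0.58 and -0.05. These values describe 9 libraries that share group, haemoglobin content and scaling. The genes most like each member in the same measure, among 10044 rows, were STT3A (0.99), C3H5orf15 (0.98) and KDELR2 (0.98) for TIMP1, and PLXDC2 (0.99), AXL (0.98) and MEDAG (0.98) for TIMP2. For TIMP3 they were CREB5 (0.98), ECM2 (0.98) and RAB23 (0.97), and for SERPINE2 ATP2B4 (0.97), FKBP10 (0.97) and COL16A1 (0.97). For RECK they were FNDC3B, FUCA1 and ARCN1 (each 0.96), and for TIMP4 PIGY (0.96), FAM102A (0.95) and MYL9 (0.94). Without the Fused libraries, r lay between 0.70 and 0.85 for the genes named for SERPINE2 and between 0.80 and 0.88 for those of TIMP2. It lay between 0.90 and 0.94 for those of TIMP3, and at 0.92 or more for those of TIMP1, RECK and TIMP4.

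TIMP1, TIMP3 and TIMP4 each lie inside a synapsin gene on the opposite strand, an arrangement known from other mammals. In these tables TIMP1 lies within the span of SYN1, TIMP3 within SYN3 and TIMP4 within SYN2, with 0 shared exon bases. SYN1 averaged 2.16 in ISC, 15.9 in Fused and 2.68 in Control, SYN3 averaged 1.003 in ISC, 2.93 in Fused and 1.36 in Control, and SYN2 averaged 1.03 in ISC, 6.14 in Fused and 5.17 in Control. The strand setting of the counting is not known here, so reads of the 2 strands may not be told apart. The RECK row also falls within the bases listed for GNG10 on the same strand, 1624055 to 123554260, with 0 shared exon bases. A listed span that wide need not mean that RECK lies inside the GNG10 gene. GNG10 averaged 154 in ISC, 144 in Fused and 149.6 in Control.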

How the data were processed

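RNA of 9 ligament samples was made into libraries with a kit that keeps the strand, per the labels' protocols. Reads were aligned with TopHat, per the submitters' processing notes, to oryCun2. Cufflinks and the build are named in the series' design text. The counting tool, its strand setting, the annotation and all versions were not given in the sources used here. Deposited by the authors were 3 tables with identical values (largest difference 0): a normalized signal per gene, read counts divided by a library size factor (TMM, as the tables are named). The deposited tables also hold the authors' p-values and q-values, a ratio of groups on the log2 scale and gene lengths. In every library 100% of values were whole multiples of the smallest (tolerance 1e-06), which gave back the reads. For ISC replicate 3 and Fused replicate 2, 1 read is worth so nearly 1 that this is hard to tell from rounding. A row with no gene name was left out. Symbols were added to 764 of 8020 locus rows from a RefSeq table of another assembly (mOryCun1.1), used for names only.

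The test was limma 3.58.1 in R 4.3.3, with a mean-variance trend, on log2(value + 1) of the 6 libraries of a comparison, for genes with a value of at least 1 in 3 libraries, with Benjamini-Hochberg adjustment over all genes tested and a threshold of 0.05. Fold changes on this scale understate changes of low genes. With 3 against 3 libraries an exact permutation test cannot go below 0.1, so none was used. edgeR 4.0.16 and DESeq2 1.42.0 on recovered reads, other pseudocounts (0.1 and 5), filters and scaling, a fit of all libraries, a replicate block, and leaving out single or blood-rich libraries were alternatives. The scripts were tested on simulated data. The 6 genes, the lists and the naming rule (from each list and comparison up to 4 called genes by size of change, filled to 2 by smallest p and then given as values) were chosen with earlier results of these data known. Some of the genes that the filling takes are not described. Intervals of counts cover counting error only.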

Additional observations from a re-analysis of the deposited data

Results flagged for a closer look

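TIMP1 was singled out because every ISC library (149 to 223) lay above every Control library and every Fused library (60.1 to 94.5) below, so that ISC and Fused stood on opposite sides of Control. At each border the counting intervals of the nearest libraries overlapped. The difference between the effects is that of ISC against Fused, a log2 change of 1.33 that did not pass in limma (adjusted p = 0.0864).

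SERPINE2 was singled out because the effects of ISC and Fused against Control differed by 2.35 on the log2 scale in the direct test (limma adjusted p = 0.0392), with 3 of 3 ISC libraries above 3 of 3 Fused libraries.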

How the results depend on the processing

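Over all alternatives, genes and comparisons, 249 of 282 values kept their direction and their side of the threshold. Of the rest, 21 lost a call, 6 gained one and 6 turned sign, and the cause was not tested. Only results called in the main fit could lose a call. TIMP3 in Fused against Control lost it in 7 of 16 alternatives. SERPINE2 lost it in 6 of 16 in the same comparison and in 8 of 16 in ISC against Fused. In ISC against Control, leaving out the blood-rich libraries leaves out ISC replicate 2 alone and is counted once. Without the libraries over 4% haemoglobin, Fused against Control gave 0.134 for TIMP4 and 0.0282 for RECK, and ISC against Control 0.0388 for TIMP2. Without single libraries TIMP2 ranged from -0.17 to 0.0767 in ISC against Control and TIMP4 from -0.66 to 0.0491 in Fused against Control. Of the 6 genes, in Fused against Control 2 were called, 0 with all 9 libraries in a fit and 0 to 3 without single libraries. The 3 came without Fused replicate 1, where 2191 of all 14686 genes tested were called. With all 9 libraries in a fit 25 of all genes were called. The fit without the blood-rich libraries holds 1 Fused library and is left out of the counts of the 6. In ISC against Fused 1 of the 6 was called, 2 with all 9 libraries, 0 with edgeR and 3 with DESeq2. None was called whichever single library was left out (5 or 6 at an unadjusted p under 0.05). Of all 15404 genes tested, 214 were called with all 9 libraries, 29 with edgeR, 321 with DESeq2 and 0 to 24 without single libraries. Without single libraries 1059 to 2227 of them had an unadjusted p under 0.05 in limma.

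Counts of called genes over the whole table moved more. For ISC against Control the 7 genes became 4 with a pseudocount of 0.1, 14 with all 9 libraries, 228 with DESeq2 and 4 to 38 without single libraries. For Fused against Control the 966 became 25 with all 9 libraries, 0 without the blood-rich libraries and 0 to 2191 without single libraries. For ISC against Fused the 43 became 79 with no filter, 214 with all 9 libraries, 321 with DESeq2, 0 without the blood-rich libraries (878 at an unadjusted p under 0.05) and 0 to 24 without single libraries. With the replicate block, 3 genes were called in ISC against Control and 88 in ISC against Fused, and no call of the 6 genes changed (SERPINE2 in Fused against Control kept -1.93, limma adjusted p = 0.0129). The numbers do not pair the libraries by the labels. Same-numbered libraries correlated in their deviations between -0.0846 and 0.192 (ISC and Control), -0.105 and 0.0576 (Fused and Control) and -0.167 and 0.437 (ISC and Fused), and not every library correlated best with its own number. Depth limits TIMP4 in ISC replicate 2, SERPINE3 in all groups and PLAUR in Control, with values near or below that of 3 reads.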
